A study of Saccharomyces cerevisiae with 6 samples.

Results

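The PIR and SUN genes of *Saccharomyces cerevisiae* encode 2 small families of secreted cell wall proteins. The 8 genes described here are the PIR genes *PIR1* (YKL164C), *HSP150* (YJL159W, also called *PIR2*), *PIR3* (YKL163W) and *CIS3* (YJL158C, also called *PIR4*), and the SUN genes *NCA3* (YJL116C), *SUN4* (YNL066W), *SIM1* (YIL123W) and *UTH1* (YKR042W). They were taken by gene identifier from 7032 genes in the count table, and all 8 were among the 5943 genes that passed the filter on low counts. The families were picked with the difference between the strains already known. Their counts in that comparison are therefore given as a description, with fold changes and standard errors (SE) but without p-values.

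Nascent RNA was measured by transient transcriptome sequencing (TT-seq), in which a brief pulse of 4-thiouracil marks newly made RNA, so that the reads come mostly from RNA synthesised during the pulse. The *dbp2Δ* strain lacks Dbp2, a DEAD-box RNA helicase, and was compared with wild-type to ask how transcription of both strands changes without it, with 3 biological replicates of each strain. The *dbp2Δ* strain is *MAT*alpha with *KanR* in place of *DBP2*, carries *ura3Δ0*, *leu2Δ0* and *his3Δ0*, and is *TRP1 MET LYS*. The wild-type strain is listed as BY4741, with the genotype *MAT*a, *his3Δ1*, *leu2Δ0*, *met15Δ0* and *ura3Δ0*. Both strains carried the empty plasmid pRS426, were grown without uracil in 2% glucose at 30°C to an OD600 of 0.5, and were labelled for 10 min with 0.32 mg/ml 4-thiouracil. As listed, the strains differ in mating type and in nutritional markers as well as in *DBP2*, so the loss of *DBP2* and the rest of the strain background cannot be told apart.

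PIR proteins ("proteins with internal repeats") are secreted, cut by the Kex2 protease, and bound to the glucan of the wall through glutamines of their repeats. SUN proteins, named after Sim1, Uth1, Nca3 and Sun4, share a cysteine-rich C-terminal domain and act in wall remodelling and in the separation of mother and daughter cells, and Uth1 and Nca3 were also studied in connection with mitochondria. Stress on the wall is read by membrane sensors that activate Rho1, Pkc1 and the MAP kinase Slt2, which switches on wall genes through the transcription factor Rlm1.

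The repeat that gives the PIR family its name was searched in the translated genes as glutamine, isoleucine or valine, any residue, aspartate, glycine, glutamine, then leucine, isoleucine or valine, and glutamine. It occurred 11 times in *HSP150*, 8 times in *PIR1*, 8 times in *PIR3* and once in *CIS3*. The relative *PIR5* held 4 copies, and the only other genes with a match were *TIR1*, *TIR2*, *CWP1*, *CWP2* and *ANS1*, with 1 each. The first copy in each PIR gene is shown because it is the feature that the family shares, with the codons for aspartate, glycine and glutamine in capitals. All are from the R64 reference genome, read on the coding strand.
*PIR1*, chrXI:142592-142615, minus strand: caaattggtGACGGTCAAatccaa
*HSP150*, chrX:120674-120697, plus strand: caaattggtGATGGTCAAgtccaa
*PIR3*, chrXI:144611-144634, plus strand: cagataggtGATGGTCAAgtacag
*CIS3*, chrX:122721-122744, minus strand: caaattggtGACGGTCAAgtccaa
*PIR5*, chrX:118604-118627, minus strand: caaattaatGACGGTCAAgtgcaa

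The 4 SUN proteins aligned over 324 columns without a gap, of which 149 (46.0%) held the same residue in all 4, including 10 cysteines. The stretch of 10 codons with the most shared residues, 9 of 10, is shown to mark how close the family is within its C-terminal domain, with the 22 of 30 bases that all 4 genes share in capitals.
*NCA3*, chrX:194433-194462, minus strand: AAGACtCAATGGCCtTCtGAcCAACCaagc
*SUN4*, chrXIV:502172-502201, plus strand: AAGACaCAATGGCCtTCtGAcCAACCatct
*SIM1*, chrIX:128976-129005, plus strand: AAGACcCAATGGCCaTCcGAtCAACCatct
*UTH1*, chrXI:520022-520051, plus strand: AAGACcCAATGGCCtTCtGAaCAACCttcc

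Some of the genes are close enough in sequence that short reads could match more than 1 of them. Whether reads did so depends on their length, which is not given here. *PIR1* and *PIR3* encode proteins with 77.7% identical residues over their aligned length, and the longest run of identical DNA between them was 81 bp. *HSP150* and *CIS3* shared a run of 65 bp at 62.3% protein identity, while *PIR1* and *HSP150*, the closest pair by protein at 84.7%, shared at most 26 bp. Among the SUN genes protein identity ranged from 55.9% for *NCA3* and *SUN4* to 72.7% for *SUN4* and *SIM1*, with no identical run longer than 21 bp. No source used here says how reads that match more than 1 gene were treated, so the values of *PIR1* and *PIR3*, and of *HSP150* and *CIS3*, are uncertain to the extent of these runs.

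The libraries held 6968216 to 8659542 gene counts in *dbp2Δ* and 11177517 to 13134963 in wild-type. *DBP2* itself had 0, 0 and 2 counts in *dbp2Δ* and 10976 to 11213 in wild-type. *MET17* (the *MET15* locus) had 1505 to 2030 counts in *dbp2Δ* and 0 in each wild-type library, and *LYS2*, which the genotype given for the wild-type strain does not list as mutated, had 4477 to 5894 counts in *dbp2Δ* and 0 or 1 in wild-type. The *LYS2* counts thus do not match the genotype listed for wild-type, so the identity of that strain is uncertain. Replicates varied more in wild-type, with a biological coefficient of variation of 9.66% in *dbp2Δ* and 26.5% in wild-type. *HSP82*, a heat shock chaperone, had 1618 to 2088 counts in *dbp2Δ*, against 56421, 74606 and 16846 in wild-type replicates 1, 2 and 3. Every wild-type library was above every *dbp2Δ* library (log2 fold change -4.13, SE 0.56, edgeR adjusted p = 0.00198). Wild-type replicate 3 stood apart in this gene, as the lowest of the wild-type libraries. Values below are counts scaled by TMM (trimmed mean of M-values) to the mean library size, called normalized counts, and each log2 fold change is *dbp2Δ* over wild-type. Whether counting used strand is not given, so a gene count may hold reads of both strands.

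The 8 genes did not move as 1 block. *PIR3* and *NCA3* were many times higher in *dbp2Δ*, *UTH1* and *HSP150* were moderately higher, *PIR1* and *SUN4* were lower, and *SIM1* and *CIS3* differed least. Under the threshold used for all genes (edgeR adjusted p under 0.05), 3 of the 8 were called higher (*PIR3*, *NCA3* and *UTH1*) and 2 lower (*PIR1* and *SUN4*), beside 42.0% of all genes called, 19.6% higher and 22.4% lower. The strains' libraries did not overlap for 7 of the 8 genes, all but *CIS3*, beside 55.6% of all genes. *PIR3* had the 12th and *NCA3* the 14th largest log2 fold change of the 5943 genes, and a fold change of at least that of *NCA3* was found in 0.236% of genes. The families were chosen on these values, and nothing is read from the counts. *UTH1* was not called without wild-type replicate 1 or any single *dbp2Δ* library, *SUN4* was not called without *dbp2Δ* replicate 2, and *HSP150* was called without wild-type replicate 3.

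**Figure D1:**
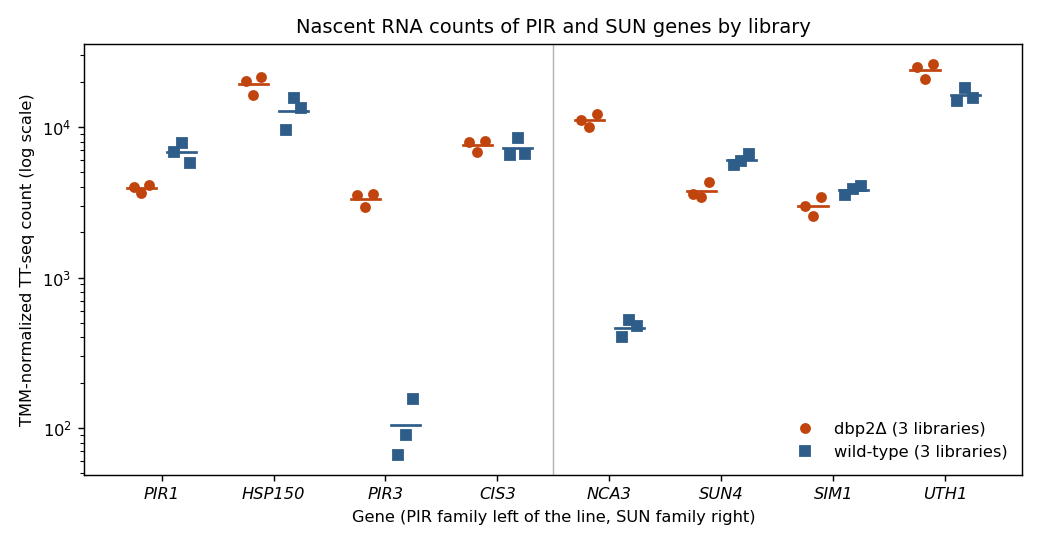
Normalized counts (log scale) of the 4 PIR and 4 SUN genes in each library, with *dbp2Δ* left of wild-type, points for libraries and bars for means. *PIR3* (2926 to 3582 in *dbp2Δ*, 66.0 to 156 in wild-type) and *NCA3* (10009 to 12266 in *dbp2Δ*, 402 to 519 in wild-type) separate the strains most, and only in *CIS3* do the strains overlap.

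*PIR3*, which encodes an O-glycosylated wall protein, had 3528, 2926 and 3582 normalized counts in *dbp2Δ*, against 66.0, 90.4 and 156 in wild-type. The lowest *dbp2Δ* library was far above the highest wild-type one. The means were 3345 ± 364 in *dbp2Δ* and 104 ± 46.4 in wild-type (SD, n = 3 each), a 32.1-fold ratio and a log2 fold change of 5.0 (SE 0.32). In raw counts this was 2599, 2279 and 3156 in *dbp2Δ*, against 76, 105 and 201 in wild-type. Wild-type replicate 3 held 1.99 times the mean of the other wild-type libraries, and without it the strains stood further apart, with a log2 fold change of 5.41. The longest shared run of *PIR3* with another of these genes is that with *PIR1*, which was more abundant than *PIR3* in wild-type, and the part of shared reads in the wild-type counts of *PIR3* was not tested.

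*PIR1*, whose coding sequence lies back to back with *PIR3*, went the opposite way, with 4002, 3629 and 4132 normalized counts in *dbp2Δ*, against 6805, 7858 and 5788 in wild-type. Every *dbp2Δ* library was below every wild-type library. The means of 3921 ± 261 in *dbp2Δ* and 6817 ± 1035 in wild-type (SD, n = 3 each) gave a log2 fold change of -0.80 (SE 0.15). *HSP150*, a PIR protein whose synthesis increases after heat shock, had 20204, 16441 and 21649 normalized counts in *dbp2Δ*, against 9583, 15584 and 13334 in wild-type. The strains did not overlap, but *dbp2Δ* replicate 2 and wild-type replicate 2 lay close together, and the gene was not among those called. Its log2 fold change was 0.60 (SE 0.22). *CIS3*, the PIR gene with a single repeat, had 7993, 6809 and 8061 normalized counts in *dbp2Δ*, against 6552, 8465 and 6655 in wild-type. The strains overlapped, and its log2 fold change was 0.08 (SE 0.16).

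Among the SUN genes, *NCA3*, first studied for its part in the expression of mitochondrial ATP synthase subunits, had 11173, 10009 and 12266 normalized counts in *dbp2Δ*, against 402, 519 and 475 in wild-type. The libraries of each strain lay close together and far from those of the other strain. The means of 11149 ± 1129 in *dbp2Δ* and 465 ± 59.3 in wild-type (SD, n = 3 each) gave a 24-fold ratio and a log2 fold change of 4.58 (SE 0.18). In raw counts it had 8231, 7796 and 10806 in *dbp2Δ*, against 463, 603 and 613 in wild-type. *UTH1*, the most abundant of the 8 genes per length in both strains, had 25106, 20761 and 26400 normalized counts in *dbp2Δ*, against 14920, 18069 and 15614 in wild-type. All *dbp2Δ* libraries were higher, with a log2 fold change of 0.57 (SE 0.17).

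The remaining SUN genes were lower in *dbp2Δ*. *SUN4*, which takes part in the septation of mother and daughter cells, had 3567, 3437 and 4326 normalized counts in *dbp2Δ*, against 5620, 5928 and 6667 in wild-type. The strains did not overlap, and the log2 fold change was -0.68 (SE 0.15). *SIM1*, its closest relative in the family, had 3003, 2552 and 3429 normalized counts in *dbp2Δ*, against 3553, 3864 and 4036 in wild-type. The *dbp2Δ* libraries were all lower, the highest of them by little, and the log2 fold change was -0.35 (SE 0.15).

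Levels of different genes were compared as CPM (counts scaled to an equal library size) per kilobase of coding sequence, written CPM per kb. In *dbp2Δ* the order was *UTH1* (2221 ± 272 CPM per kb), *HSP150* (1584 ± 219), *CIS3* (1128 ± 104), *NCA3* (1113 ± 113), *PIR1* (387 ± 25.7), *PIR3* (346 ± 37.7), *SUN4* (303 ± 38.5) and *SIM1* (212 ± 31.0; SD, n = 3 each). Of neighbours in this order, *CIS3* and *NCA3*, *PIR1* and *PIR3*, and *PIR3* and *SUN4* differed by less than the sum of their SDs. In wild-type the order was *UTH1* (1493 ± 152 CPM per kb), *CIS3* (1069 ± 159), *HSP150* (1046 ± 247), *PIR1* (673 ± 102), *SUN4* (487 ± 43.1), *SIM1* (270.0 ± 17.3), *NCA3* (46.5 ± 5.92) and *PIR3* (10.8 ± 4.80; SD, n = 3 each), and the neighbours *CIS3* and *HSP150* were within their spread. Among 5610 genes ranked by this level, *NCA3* was 81st in *dbp2Δ* and 3593rd in wild-type, and *PIR3* was 394th in *dbp2Δ* and 5151st in wild-type. The lowest rank of the other 6 genes was that of *SIM1*, 688th in *dbp2Δ* and 606th in wild-type.

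The make-up of each family differed accordingly. *NCA3* made up 28.4%, 29.7% and 28.8% of the per-length level of the 4 SUN genes in *dbp2Δ*, against 1.89%, 2.10% and 2.06% in wild-type. *SUN4* made up 7.28% to 8.18% in *dbp2Δ*, against 19.3% to 23.2% in wild-type, and *UTH1* stayed the main SUN transcript, with 56.8% to 58.9% in *dbp2Δ* and 62.4% to 67.5% in wild-type. In the PIR family *PIR3* made up 9.93% to 10.2% in *dbp2Δ*, against 0.281% to 0.606% in wild-type, and *PIR1* made up 10.9% to 11.9% in *dbp2Δ*, against 21.5% to 27.6% in wild-type. *HSP150* held 44.5% to 47.2% in *dbp2Δ* and 32.2% to 40.9% in wild-type, and *CIS3* held 31.9% to 33.5% in *dbp2Δ* and 37.0% to 39.9% in wild-type. Together the 8 genes took 0.831%, 0.698% and 0.853% of all gene counts in *dbp2Δ*, against 0.490%, 0.568% and 0.518% in wild-type.

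**Figure D2:**
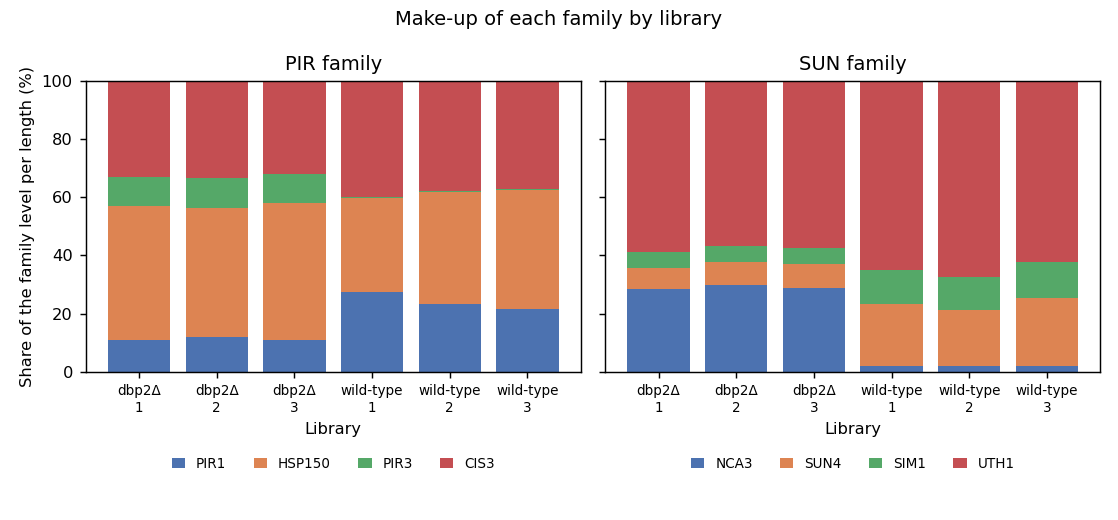
Share (%) of each gene in the summed per-length level of its family, 1 stacked bar per library, *dbp2Δ* left of wild-type. *NCA3* takes 28.4% to 29.7% of the SUN family in *dbp2Δ* and 1.89% to 2.10% in wild-type, and *PIR3* takes 9.93% to 10.2% of the PIR family in *dbp2Δ* and 0.281% to 0.606% in wild-type.

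Of the relatives outside the 8 genes, *PIR5* is a PIR gene known for expression during sporulation, and YMR244W resembles the SUN proteins, with 33.6% to 40.1% identical residues. *PIR5* had 47.5, 32.1 and 40.9 normalized counts in *dbp2Δ*, against 22.6, 27.6 and 146 in wild-type, so that the *dbp2Δ* libraries lay between wild-type replicates 2 and 3. It did not pass the test (log2 fold change -0.72, SE 0.70, edgeR adjusted p = 0.436). YMR244W had 14.9, 14.1 and 10.2 normalized counts in *dbp2Δ*, against 8.68, 5.17 and 27.9 in wild-type, and did not pass the test either (log2 fold change -0.12, SE 0.63, edgeR adjusted p = 0.890). Both were near the bottom of the per-length order, at 4.70 ± 0.906 and 1.24 ± 0.239 CPM per kb in *dbp2Δ* and 7.68 ± 8.22 and 1.32 ± 1.16 CPM per kb in wild-type (SD, n = 3 each). In both, wild-type replicate 3 was the high library, at 5.84 times the mean of the other wild-type libraries for *PIR5* and 4.03 times for YMR244W. Over the 8 genes that ratio was 1.99 for *PIR3* and 0.789 to 1.15 for the others.

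In the R64 annotation none of the 8 coding sequences has an intron. *PIR1* (chrXI:141794-142819, minus strand, 1026 bp) and *PIR3* (chrXI:144401-145378, plus strand, 978 bp) are divergent, with 1581 bp between their start codons. *HSP150* (chrX:120449-121690, plus strand, 1242 bp) and *CIS3* (chrX:122265-122948, minus strand, 684 bp) are convergent, 574 bp apart, and *HSP150* and *PIR5* (chrX:117962-118825, minus strand) are divergent. The SUN genes are dispersed. *NCA3* lies at chrX:193860-194873 (minus strand, 1014 bp), *SUN4* at chrXIV:501515-502777 (plus strand, 1263 bp), *SIM1* at chrIX:128151-129581 (plus strand, 1431 bp) and *UTH1* at chrXI:519527-520624 (plus strand, 1098 bp).

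The genes next to the members were read to see how far along the chromosome a difference reached. *ASF1*, a histone chaperone gene that is divergent from *NCA3*, gave a log2 fold change of -0.06 (SE 0.18, edgeR adjusted p = 0.811), and *PHO86*, on its other side and needed for export of a phosphate transporter from the endoplasmic reticulum, fell by 0.86 on the log2 scale (SE 0.15, edgeR adjusted p = 0.00433). Beyond *PIR3*, YKL162C was higher by a log2 of 0.73 (SE 0.15, edgeR adjusted p = 0.00887), and beyond *PIR1*, *MCD4*, of GPI anchor synthesis, did not pass the test (-0.48, SE 0.19, edgeR adjusted p = 0.0691). Of the 11 neighbours that are not PIR genes, 3 were higher (*AQR1*, *POG1* and YKL162C), 3 were lower (*AYR1*, *PHO86* and *SHB17*) and 5 were not called, beside 19.6% of all genes higher and 22.4% lower. The largest difference among them was that of the transporter gene *AQR1* beside *SUN4* (log2 fold change 1.68, SE 0.19, edgeR adjusted p = 0.00113), which was opposite in sign to that of *SUN4*. Without wild-type replicate 1 or any single *dbp2Δ* library *POG1* was no longer called (main adjusted p = 0.0390), and *SHB17* was not called without *dbp2Δ* replicate 1 or 2 (edgeR, highest adjusted p = 0.126 for *POG1* and 0.0838 for *SHB17*). *MCD4* was called without wild-type replicate 2, and *FAR1* and *RPL9B* without wild-type replicate 3.

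**Figure D3:**
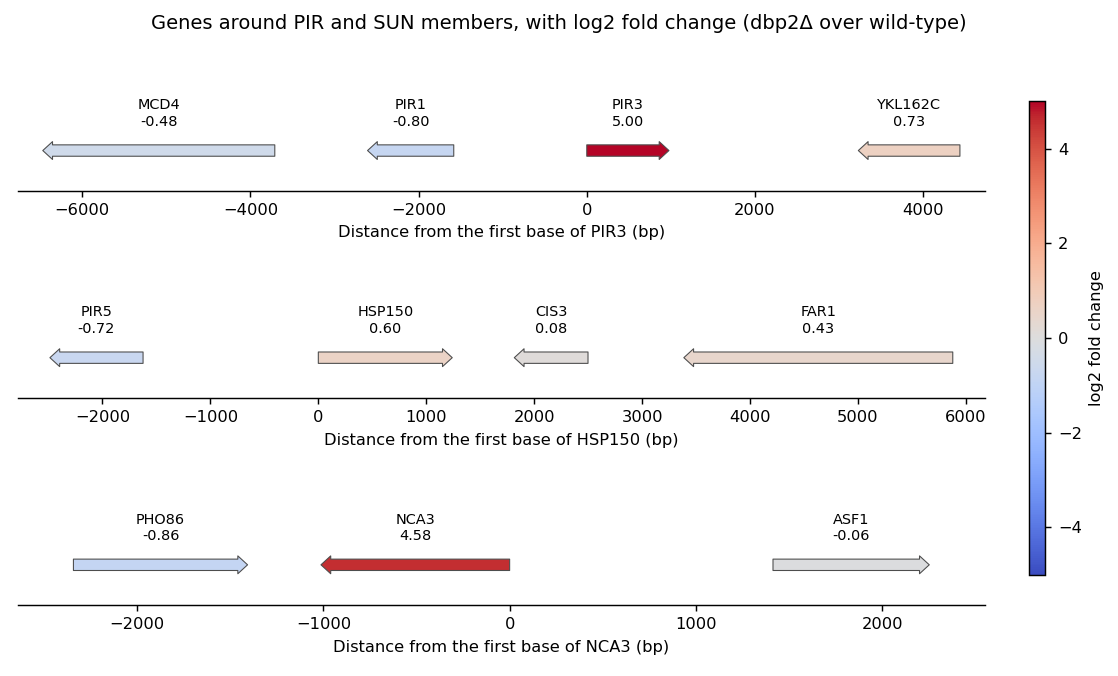
Coding sequences around *PIR3*, *HSP150* and *NCA3*, 1 panel each, drawn to scale as distance (bp) from the first base of that gene, with arrows in the direction of transcription and colour and numbers for the log2 fold change of *dbp2Δ* over wild-type. *PIR3* (5.0) and *PIR1* (-0.80) stand back to back with opposite signs, and *NCA3* (4.58) lies between *ASF1* (-0.06) and *PHO86* (-0.86).

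The 600 bp before each start codon were searched on both strands for 4 short motifs. A loose form of the Rlm1 site, CTA and TAG with any 4 bases between them, was found in *HSP150* (2 times), *PIR3* and *SUN4*. It was found in 10.8% of 6018 such windows. The 4 inner bases were not limited to A and T, and they hold C in *SUN4* and in the *HSP150* match nearest the start codon. The letters AGGGG, the stress response element bound by Msn2 and Msn4, were found in each of the 4 PIR genes and in none of the 4 SUN genes, with 39.6% of windows holding them. CACGAAA, bound by the SBF complex of Swi4 and Swi6, was in *SIM1* (8.30% of windows), as was GAANNTTC, a form of the heat shock element (22.7%). *NCA3* and *UTH1* held none of the 4, and no matches of different motifs overlapped in these windows. The 4 matches to the loose form of the Rlm1 site are shown because Rlm1 is the end point of the wall integrity pathway, with the match in capitals.
*HSP150*, chrX:120219-120242, plus strand: ttttgagCTAAATTTAGattttgg
*HSP150*, chrX:120414-120437, plus strand: tccttttCTAACCCTAGtacaata
*PIR3*, chrXI:144114-144137, plus strand: tagcaaaCTAATTATAGatcaaag
*SUN4*, chrXIV:501421-501444, plus strand: attagcaCTAATCTTAGaaaattt
The matches lie 223 and 28 bp before the start codon in *HSP150*, 280 bp in *PIR3* and 87 bp in *SUN4*. *HSP150* and *PIR3* had higher and *SUN4* had lower counts in *dbp2Δ*.

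Antisense transcripts were listed for 5 of the 8 genes, *PIR1*, *PIR3*, *NCA3*, *SUN4* and *UTH1*. Of all 2167 antisense transcripts tested, 42.2% were called between the strains. Antisense values are given as raw counts, while their fold changes are scaled for depth. For each of the 5 genes the scaled antisense count differed in the same direction as the sense count. Each of these transcripts overlaps its gene, and it is not known whether counting used strand. The same reads may therefore be in both counts, so the shared direction cannot show that the strands changed together. The share of all antisense transcripts with the same direction as their gene is not given here. The antisense transcript of *NCA3* (chrX:193745-195185, plus strand, 1441 bp) spans the whole gene and had 8853, 8409 and 11475 counts in *dbp2Δ*, against 609, 833 and 871 in wild-type (log2 fold change 4.22, SE 0.23). Its counts exceeded those of the gene in each library, at 1.06 to 1.08 times the sense count in *dbp2Δ* and 1.32 to 1.42 times in wild-type. The transcript listed against *PIR3* (chrXI:144539-144955, minus strand, 417 bp) lies within the gene, and had 1411, 1272 and 1779 counts in *dbp2Δ*, against 38, 51 and 108 in wild-type (log2 fold change 5.10, SE 0.34). It covers 42.6% of the gene and held 0.543 to 0.564 times its count in *dbp2Δ* and 0.486 to 0.537 times in wild-type.

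*PIR1* and *SUN4* also lie wholly within their antisense transcripts. That of *PIR1* (chrXI:141261-142823, plus strand) had 3176, 3043 and 3906 counts in *dbp2Δ*, against 8061, 9414 and 7783 in wild-type (log2 fold change -0.74, SE 0.20). That of *SUN4* (chrXIV:501201-502844, minus strand) had 2894, 2919 and 4124 counts in *dbp2Δ*, against 6731, 7011 and 8835 in wild-type (log2 fold change -0.60, SE 0.19). The transcript of *UTH1* (chrXI:519406-519838, minus strand) shares 312 bp with the start of the gene and had 6050, 5468 and 7410 counts in *dbp2Δ*, against 5860, 7696 and 6544 in wild-type (log2 fold change 0.49, SE 0.21).

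The antisense counts cannot be taken as separate from the sense counts. Whether counting used strand is not given, so the gene counts may hold reads of both strands as well. The part of each strand in them was not tested. Of 441 rows of the antisense table whose gene lies wholly within the transcript, 440 had an antisense count at least as high as the sense count in all 6 libraries. With the sense count subtracted, the transcript of *NCA3* kept 844, 787 and 759 normalized counts in *dbp2Δ*, against 127, 198 and 199.9 in wild-type, a log2 ratio of means of 2.19. For *PIR1* the same subtraction left 309, 277 and 302 in *dbp2Δ*, against 193, 249 and 244 in wild-type, and for *SUN4* it left 361, 311 and 355 in *dbp2Δ*, against 223, 110.2 and 179.8 in wild-type. The remainder was thus higher in *dbp2Δ* for all 3 genes, opposite in sign to the deposited antisense counts of *PIR1* and *SUN4*. The remainder includes all bases of the transcript beyond the gene and was not tested.

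**Figure D4:**
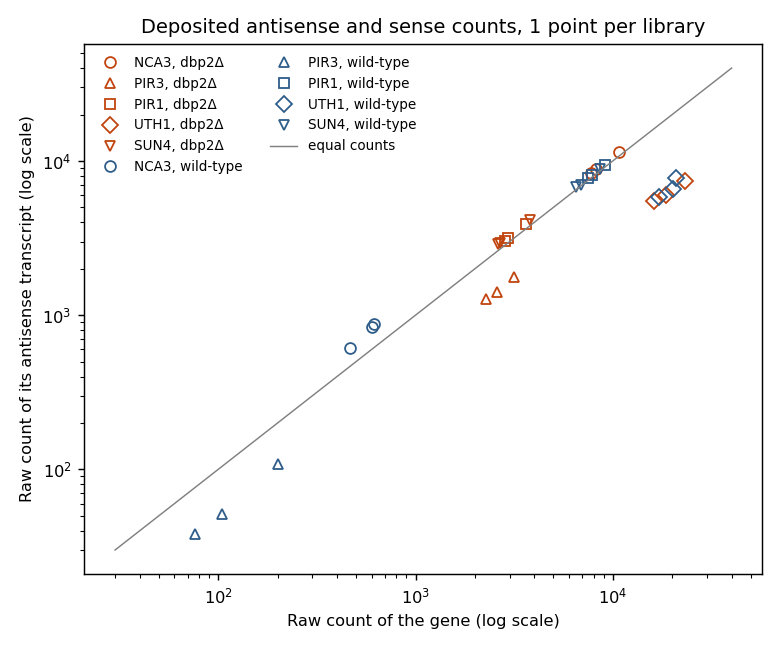
Antisense against sense counts (both log scale) of the 5 genes with an antisense transcript, 1 point per library, with a line where the counts are equal. *NCA3*, *PIR1* and *SUN4*, each wholly within its antisense transcript, lie just above the line in both strains (ratio 1.02 to 1.42), while *PIR3* (0.486 to 0.564) and *UTH1* (0.319 to 0.367) lie below it.

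Other wall genes were read in 3 lists. Of 10 mannoproteins held in the wall by a GPI anchor, 3 were called higher and 0 lower by edgeR (also 0 lower by DESeq2 and 0 at an unadjusted p under 0.05), beside 19.6% of all genes higher and 22.4% lower, with a median log2 fold change of 0.21 against -0.02 over all genes. *CWP1*, which encodes a wall mannoprotein, had the largest log2 fold change of them, at 2.14 (SE 0.18, edgeR adjusted p = 0.000420). It had 1933, 1695 and 1989 normalized counts in *dbp2Δ* and 445, 512 and 315 in wild-type. *PST1* rose by 1.46 (edgeR adjusted p = 0.00225), and *SED1* by 1.21 (0.0147, not called without *dbp2Δ* replicate 1 or 3). Without wild-type replicate 1, 2 of the list were called lower.

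Of 20 genes for the synthesis and remodelling of wall glucan and chitin, 8 were called higher, 3 lower and 9 not (19.6% of all genes were higher and 22.4% lower), with a median log2 fold change of 0.28. *FKS1*, the main catalytic subunit of glucan synthase, rose by 0.96 (edgeR adjusted p = 0.00490), *KNH1* by 1.21 (0.00185) and *EXG1*, an exoglucanase, by 0.88 (0.00396). *UTR2*, a transglycosylase that links chitin to glucan, fell by 0.92 (0.0121, not called without *dbp2Δ* replicate 1 or 2). The count of higher genes was 4 without *dbp2Δ* replicate 3, and that of lower genes was 1 and 0 without *dbp2Δ* replicates 1 and 2.

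In the wall integrity pathway 8 of 15 genes were called higher and 2 lower, beside the same 19.6% and 22.4% of all genes, with a median log2 fold change of 0.49. *SLT2*, the MAP kinase, had 4087, 4131 and 4539 normalized counts in *dbp2Δ* and 1243, 2476 and 1357 in wild-type (log2 fold change 1.33, SE 0.26, edgeR adjusted p = 0.00692). *RLM1* had 1804, 1387 and 1665 normalized counts in *dbp2Δ* and 570.4, 1136 and 663 in wild-type (1.04, SE 0.25, edgeR adjusted p = 0.0153, not called without *dbp2Δ* replicate 1 or 3). The sensors *MTL1* (1.36, edgeR adjusted p = 0.00466), *MID2* (1.13, 0.00149) and *WSC3* (0.76, 0.0239) were higher as well. The sensor *WSC2* did not pass the test (0.37, edgeR adjusted p = 0.102). The 2 genes called lower were the sensor *WSC1* (-0.41, edgeR adjusted p = 0.0429) and *MKK1* (-0.55, 0.00637). *WSC1* was called in 4 of 11 alternatives and *MKK1* in 11. The regulators *PKC1* (-0.16, edgeR adjusted p = 0.291) and *RHO1* (-0.12, 0.488) did not pass the test. The count of higher genes was 5 without any single *dbp2Δ* library, and that of lower genes was 1 without *dbp2Δ* replicate 1 or 2 or wild-type replicate 1 or 2.

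*KEX2*, whose protease cuts PIR proteins, gave a log2 fold change of -0.09 (SE 0.14, edgeR adjusted p = 0.627). For the 8 PIR and SUN genes the median log2 fold change was 0.32, over a range from -0.80 to 5.0.

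**Figure D5:**
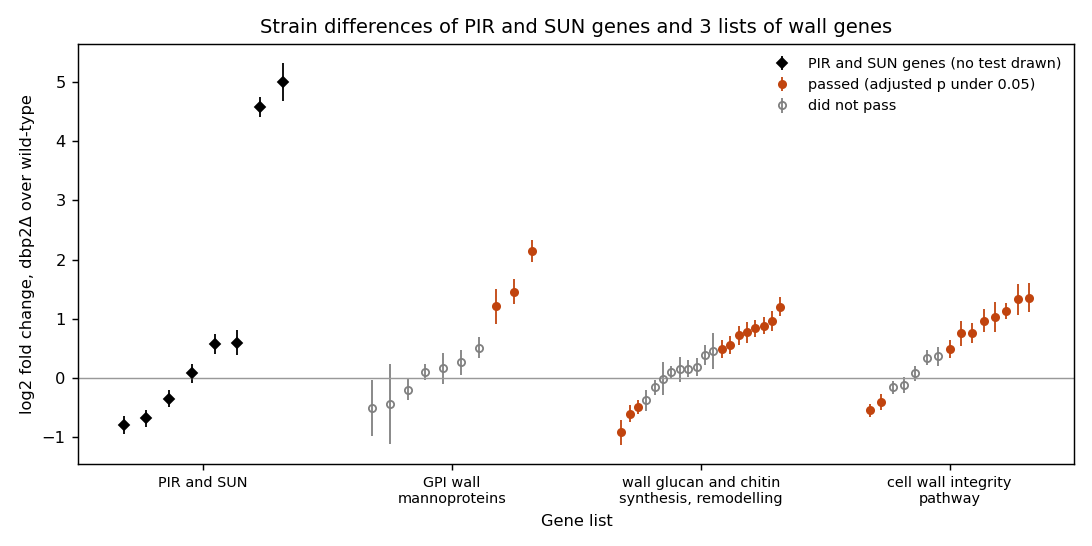
Log2 fold change of *dbp2Δ* over wild-type for each gene of the 3 wall gene lists and for the 8 PIR and SUN genes, 1 point per gene with its SE as a bar. In the lists, filled points passed the edgeR test and open points did not, and *PIR3* (5.0) and *NCA3* (4.58) lie above every gene of the lists.

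The pattern of each member over the 6 libraries was compared with that of 5484 genes by the distance between centred log2 CPM values, which the difference between the strains dominates. *STL1*, a glycerol transporter gene (distance 0.659, log2 fold change 5.66), and *PUT4*, a proline permease gene (0.746 and 5.40), were nearest to *PIR3*, and *NCA3* was 4th (0.974). *RCK1*, a protein kinase gene (distance 0.649, log2 fold change 4.41), and *CSS1* (0.733 and 4.40) were nearest to *NCA3*, for which *PIR3* was 5th. The gene nearest to *HSP150* was *CRH1* (distance 0.258), a transglycosylase of the wall that acts as *UTR2* does, and *UTH1* was 8th (0.348). *PIR1* was nearest to the proteasome subunit gene *PRE6* (0.0892) and the clathrin light chain gene *CLC1* (0.0957), and *SUN4* to *LPD1* (0.108) and *WTM2* (0.117). *CIS3* was nearest to *SSK1* (0.101) and *HBS1* (0.133), *SIM1* to *EOS1* (0.103) and *DID4* (0.165), and *UTH1* to *XDJ1* (0.203) and YPR196W (0.210).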

How the data were processed

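TT-seq libraries were made from 3 cultures each of *dbp2Δ* and wild-type, labelled biological replicates, with a directional library kit. Raw counts were deposited by the authors for genes and, in a separate sheet, for non-coding transcripts on the opposite strand of a gene. FeatureCounts, edgeR and build R64 are named in the submitters' processing notes. No source used here gives the aligner, how multiply matching reads were treated or whether counting used strand. RefSeq's R64 annotation gave symbols and coordinates for 5953 of 7032 identifiers.

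Tests used edgeR 4.0.16 in R 4.3.3 (TMM, filterByExpr, glmQLFit, glmQLFTest), strain as the only factor, with calls at an adjusted p under 0.05 (Benjamini-Hochberg, over all features). A prior count of 0.125 was used. Each SE is the absolute log2 fold change divided by the square root of the edgeR F statistic, so it is not separate from that test. Antisense counts of 2169 distinct transcripts took their effective library sizes from the gene counts. Normalized counts refer to the mean effective library size of 9879861. TMM factors ran from 0.930 to 1.04, with a biological coefficient of variation of 20.0% over all libraries. The edgeR step was tested on simulated gene counts with the same dispersion in both strains. Proteins were translated from R64 coding sequences and aligned with MAFFT 7.526. Other steps ran in Python 3.11.15 (numpy 2.4.6, pandas 2.3.3, matplotlib 3.10.9).

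The members, gene lists and tests were chosen with earlier results of these data known. Named genes are the members, *PIR5*, YMR244W, the nearest protein-coding neighbours, *KEX2*, up to 4 called genes per list with the largest change and no overlap of the strains, up to 2 regulators per list that were not called, the 2 genes of nearest pattern among those averaging 50 or more normalized counts, and *DBP2*, *MET17*, *LYS2* and *HSP82*. The other sensors and the genes called lower in the wall integrity list are named as well. Alternatives were DESeq2 1.42.0, no filter on low counts, library size only, upper quartile scaling, a prior count of 2, antisense TMM factors, each library left out, the replicate number as a block, and antisense less sense counts. The number of members called under each setting was added after seeing the data. A further gene list is not reported here.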

Additional observations from a re-analysis of the deposited data

How the results depend on the processing

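The log2 fold changes of the 8 genes and of their 5 antisense transcripts kept their direction and moved by less than 1 SD between replicates in all 161 values from the alternative fits with edgeR or DESeq2, over ranges of 4.76 to 5.41 for *PIR3*, 4.49 to 4.67 for *NCA3*, 0.49 to 0.67 for *UTH1*, 0.43 to 0.75 for *HSP150* and 0.01 to 0.20 for *CIS3*. *PIR3* and *NCA3* were called higher and *PIR1* lower in 11 of 11 alternatives, *SUN4* in 10 (not without *dbp2Δ* replicate 2) and *UTH1* in 6 (not under the replicate block, without wild-type replicate 1 or without any single *dbp2Δ* library). *HSP150* was called in 4, namely DESeq2, library size only, upper quartile scaling and without wild-type replicate 3, and *CIS3* and *SIM1* in none. The families were chosen on this difference, so these tallies show only how calls move with the settings. In the main fit 42.0% of all genes were called. Antisense less sense counts gave log2 ratios of 2.19 for *NCA3* and, reversed, 0.37 for *PIR1* and 1.00 for *SUN4*.

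Leaving out 1 library gave 656 to 1506 genes higher (1166 with all) and 774 to 1576 lower (1331), 325 to 630 antisense transcripts higher (501) and 219 to 465 lower (413), and 2 to 4 of the 8 genes higher (3) and 1 to 2 lower (2). In the lists it gave 2 to 4 higher and 0 to 2 lower for GPI mannoproteins, 4 to 10 and 0 to 4 for glucan genes, and 5 to 8 and 1 to 2 for wall integrity. The wall integrity count lower was 1 under library size only and upper quartile scaling. With the replicate number as a block, 940 genes were higher and 1057 lower, 2 of the 8 genes were higher and 2 lower, and the wall integrity count lower was again 1. Deviations of same-numbered libraries correlated at -0.08, -0.13 and 0.00, and those of other pairs at -0.05 to 0.17. No label says whether same-numbered libraries were prepared together, and these correlations cannot exclude it. In *PIR5*, YMR244W and *PIR3*, wild-type replicate 3 was the highest wild-type library. YMR244W had only 9 to 11 raw counts in *dbp2Δ* and 6 to 36 in wild-type, so counting error limits its precision.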
